A study of Mus musculus with 11 samples.

Results

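The genes described here encode 10 subunits of the Polycomb repressive complexes, Ezh1, Ezh2, Suz12, Eed, Mtf2, Phf1, Phf19, Jarid2, Bmi1 and Rnf2. They were chosen by name, and all 10 had a row among the 14272 genes measured. Polycomb complexes keep developmental genes silent by marking the histones around them. Polycomb repressive complex 2 (PRC2) methylates lysine 27 of histone H3 through the enzyme EZH1 or EZH2, which works only when held by SUZ12 and EED. The Polycomb-like proteins PHF1, MTF2 and PHF19 and the protein JARID2 guide PRC2 to its targets, and Polycomb repressive complex 1 (PRC1), with BMI1 and the ubiquitin ligase RNF2, ubiquitinates histone H2A. EZH2 and BMI1 are known repressors of the Cdkn2a locus, which encodes the cell cycle inhibitors p16INK4a and p19ARF.

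RNA sequencing of total RNA depleted of ribosomal RNA was used for 11 libraries of a mouse model of melanoma progression. Melan-a (replicates 2 and 3) is a line of normal, non-tumorigenic pigment cells on the C57Bl/6 background that became immortal in culture. It is epithelial in shape and was grown with 200 nM PMA, a phorbol ester. 4C (pre-malignant), 4C11- (non-metastatic melanoma) and 4C11+ (metastatic melanoma) were derived from melan-a by repeated cycles of blocked attachment, were grown without PMA, and had 3 libraries each. 4C and 4C11- have a mesenchymal-like shape, whereas 4C11+ is again epithelial. PMA and the line cannot be told apart in any comparison with melan-a. Each stage is 1 cell line, and the replicates are from that line, so the spread is between its cultures and their libraries.

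The values are log2 CPM (CPM, read counts scaled to a common library total), further brought to a like distribution, since all 11 libraries share 1 highest value, as after quantile normalization. The depth was an estimated 3500000 to 7420000 reads per library. In these bulk libraries fewer expressing cells and less RNA per cell cannot be told apart. Pearson correlations between libraries of a line ranged from 0.888 to 0.981 across genes. 4C11- replicate 1 stood apart from its line, and its difference from the other replicates followed the GC content of the transcript (Spearman rho 0.686 over 9372 genes). The melan-a libraries differed from each other along GC content too (rho 0.423 for replicate 2 minus replicate 3). 4C11+ replicates 1 and 2 differed by only 1.87 times the variance expected from counting, against 5.44 to 32.9 times for the other pairs, so the tests of members and of the genes of related lists that involve 4C11+ were also run with these 2 averaged. Melanocyte markers, summed over 8 genes, were high in melan-a (1866 to 9033 CPM) and 4C11+ (10603 to 12890). They were near 0 in 4C (3.61 to 7.47) and 4C11- (3.11 to 11.6). For 4C and 4C11- the melanocyte identity therefore rests on their descent alone. Not all 8 were high in melan-a, where Tyr (-0.25 and 1.29 log2 CPM) and Pmel (2.41 and 2.95) were low. In 4C11+ Tyr was 8.39 to 8.70 and Pmel 11.7 to 12.2, whereas Kit was lower there (2.17 to 4.22) than in melan-a (6.18 and 6.92).

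Bmi1, Mtf2 and Phf19 were the members called in at least 1 comparison of lines (limma, adjusted p under 0.05). The sequences upstream of their transcription start sites are shown for that reason. Phf19 passed the authors' filter of 1 CPM in at least 4 libraries mostly through 4C11+, where it was high, so its difference is a description. The calls of Bmi1 and Mtf2 were lost with 4C11+ replicates 1 and 2 averaged. The promoter windows are from RefSeq (GRCm38.p6, 250 bases before to 50 after the start), and only bases before the start that lie in no annotated exon are printed, 5′ to 3′ on the strand of the gene. Bmi1 is shown at chr2:18676768-18677017 (plus strand), Mtf2 at chr5:108065424-108065673 (plus strand) and Phf19 at chr2:34914027-34914215 (minus strand). Capitals mark matches, on either strand and overlapping ones included, to the Sp1 motif GGGCGG, the E-box CACGTG, and the E2F motifs TTTCCCGC and TTTGGCGC.
Bmi1: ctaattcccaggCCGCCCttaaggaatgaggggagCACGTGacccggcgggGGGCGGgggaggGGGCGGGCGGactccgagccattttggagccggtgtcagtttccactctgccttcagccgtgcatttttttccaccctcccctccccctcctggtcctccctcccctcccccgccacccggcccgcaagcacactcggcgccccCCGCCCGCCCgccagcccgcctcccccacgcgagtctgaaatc
Mtf2: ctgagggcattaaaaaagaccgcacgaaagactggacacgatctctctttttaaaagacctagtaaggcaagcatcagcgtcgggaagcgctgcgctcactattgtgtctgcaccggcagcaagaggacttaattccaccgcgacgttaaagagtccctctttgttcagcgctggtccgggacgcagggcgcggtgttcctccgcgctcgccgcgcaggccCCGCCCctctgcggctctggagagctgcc
Phf19: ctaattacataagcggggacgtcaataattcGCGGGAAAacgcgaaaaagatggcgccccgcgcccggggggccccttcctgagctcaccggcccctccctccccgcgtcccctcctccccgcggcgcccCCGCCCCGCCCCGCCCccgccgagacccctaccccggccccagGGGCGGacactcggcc
The windows of Bmi1, Mtf2 and Phf19 shown above were rich in CG dinucleotides, with 23, 30 and 38 in the full 300 bases. The median over 32851 mouse promoters was 7. Another window of Mtf2, at chr5:108077915-108078214, held only 2. An E2F motif was found in the windows of Phf19, Suz12 and Ezh2, 3 of the 12 windows of the 10 genes, and in 1.56% of all promoters. The Bmi1 window held the only E-box among the members (7.15% of all promoters), and GGGCGG was found in 8 of the 12 (35.7% of all promoters). The motif CCAAT, searched for as well, was in 6 of the 12 and in 37.4% of all promoters. These are matches of letters, and binding was not measured.

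The catalytic subunits Ezh2 and Ezh1 were expressed in all 4 lines. Ezh2 had values of 6.28 and 6.79 log2 CPM in melan-a, 6.0, 6.59 and 6.16 in 4C, 5.89, 6.42 and 6.99 in 4C11-, and 5.38, 5.47 and 7.11 in 4C11+. The lowest and the highest Ezh2 value both came from 4C11+, where replicate 3 stood 1.69 above the mean of the other replicates. For Ezh1 the values were 5.71 and 4.39 in melan-a, 4.75, 5.38 and 5.94 in 4C, 6.0, 5.31 and 5.26 in 4C11-, and 5.22, 5.14 and 5.37 in 4C11+. The lines overlapped for both genes, and no order of their means exceeded the spread between libraries of a line.

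The balance between the enzymes is given by the log2 difference Ezh1 minus Ezh2, which was -1.48 ± 1.29 in melan-a (SD, n = 2), -0.90 ± 0.58 in 4C, -0.92 ± 0.93 in 4C11- and -0.75 ± 0.87 in 4C11+ (SD, n = 3 each). Ezh1 was the lower of the pair in 10 of the 11 libraries; in 4C11- replicate 1 the difference was 0.10. The ranges of the 4 lines overlapped, and a shift from one enzyme to the other was not detectable with this spread.

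Suz12 and Eed, the scaffold of PRC2 and its reader of methylated lysine 27, had overlapping values in every pair of neighbouring lines. Suz12 was 5.68 and 7.14 log2 CPM in melan-a, 7.26, 7.51 and 7.01 in 4C, 4.53, 6.84 and 7.61 in 4C11-, and 6.46, 6.0 and 7.11 in 4C11+. Both its lowest and its highest library belong to 4C11-. Eed kept to the narrowest range of the 10 genes, from 4.93 in melan-a replicate 2 to 5.85 in melan-a replicate 3, with line means of 5.27 to 5.48.

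The Polycomb-like subunits, which share a domain that reads methylated lysine 36 of histone H3, had 3 different patterns. Mtf2 was 6.38 and 6.84 log2 CPM in melan-a, 5.87, 6.90 and 6.91 in 4C, 4.59, 6.78 and 7.15 in 4C11-, and 4.23, 4.06 and 5.86 in 4C11+. All 4C11+ libraries were below every library of melan-a and 4C, while 4C11- replicate 1 lay among them. Phf19 was the least abundant member per transcript length in every line. It was -3.15 and -0.24 in melan-a, -0.25, -3.44 and -2.44 in 4C, 0.85, -1.50 and -0.24 in 4C11-, and 2.24, 1.32 and 3.17 in 4C11+. Every 4C11+ library was above every other library, at an estimated 9 to 49 reads against 0 to 9. Phf19 reached 1 CPM in 4 libraries, the 3 of 4C11+ and 4C11- replicate 1, and the authors kept only genes that did so in at least 4, so its row rests mostly on the line where it is high. Phf1 was 4.51 and 3.60 in melan-a, 3.80, 3.33 and 3.84 in 4C, 3.88, 2.32 and 2.53 in 4C11-, and 2.91, 2.24 and 2.97 in 4C11+. Exons of Cuta on the opposite strand cover 39.3% of the exon bases of Phf1, and whether reads were counted by strand is not given in the sources used here, so Phf1 is uncertain; for the other members such overlaps with any gene cover at most 6.93%.

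Jarid2, which binds PRC2 with AEBP2 in place of the Polycomb-like proteins, was 5.84 and 5.22 log2 CPM in melan-a, 4.30, 4.65 and 4.80 in 4C, 4.35, 5.03 and 4.84 in 4C11-, and 4.76, 4.85 and 5.33 in 4C11+. Both melan-a libraries were above all 6 libraries of the mesenchymal-like lines.

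Among the PRC1 genes, Bmi1 was highest in 4C11+. It was 4.91 and 6.36 log2 CPM in melan-a, 6.42, 5.98 and 5.77 in 4C, 3.34, 5.69 and 6.03 in 4C11-, and 7.20, 6.89 and 7.18 in 4C11+. The 4C11+ libraries lay above all others, and 4C11- replicate 1 lay 2.52 below the mean of the other 4C11- libraries. Rnf2 was 5.76 and 5.65 in melan-a, 6.45, 6.52 and 6.52 in 4C, 4.73, 5.70 and 6.41 in 4C11-, and 5.91, 6.03 and 6.34 in 4C11+. The 4C libraries were above every other library, with 4C11- replicate 3 next to them. Per kilobase of exon, Suz12 was the most abundant of the 10 genes in melan-a, 4C and 4C11- (4.10, 4.96 and 4.02 log2 CPM per kilobase), and Bmi1 in 4C11+ (5.10).

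**Figure D1:**
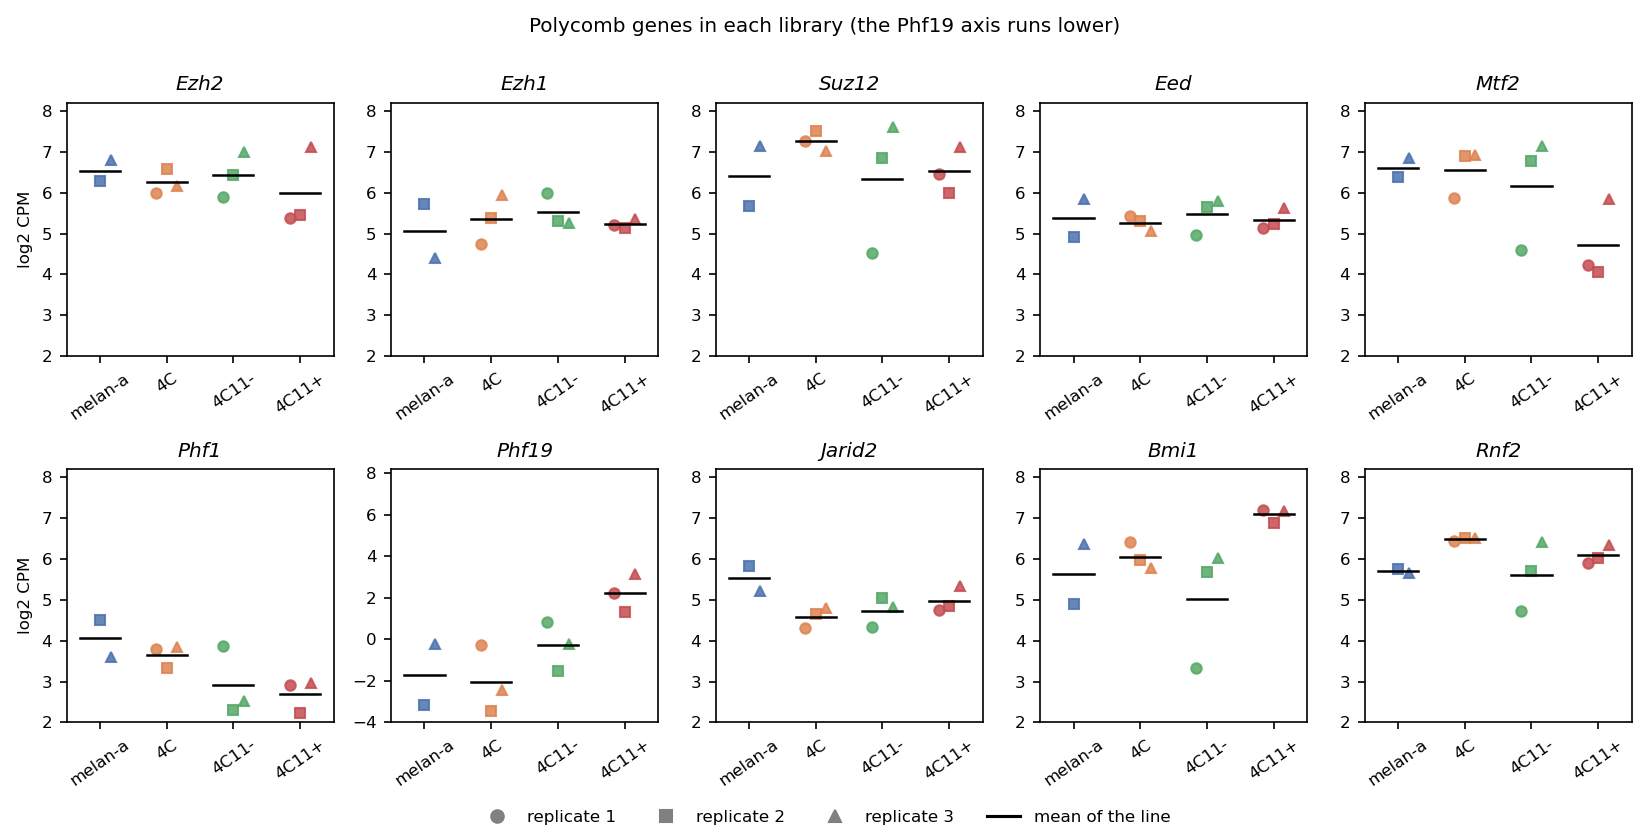
Values of the 10 Polycomb genes in log2 CPM (y axis) in each of the 11 libraries, by line (x axis), with 1 point per library, the marker giving the replicate and the bar the mean of the line. Phf19 and Bmi1 are higher in the 3 libraries of 4C11+ than in any other, and 4C11- replicate 1 (circle) lies low for Suz12, Mtf2, Bmi1 and Rnf2.

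The first step of the model, from melan-a to pre-malignant 4C, was accompanied by no difference in the 10 genes that passed the test (limma, adjusted p under 0.05 over all genes), whereas 15.2% of all genes were called. At an unadjusted p under 0.05 there was 1 member (27.6% of all genes). This was Jarid2, at 4.58 in 4C against 5.53 in melan-a, a log2 difference of -0.95 ± 0.33 (SE, n = 3 and 2, limma adjusted p = 0.0759), with no overlap of the libraries. Rnf2 was at 0.79 ± 0.39 (SE), also without overlap (limma adjusted p = 0.212). Both were called when 4C11- replicate 1 was left out of the shared estimate of the spread (limma adjusted p = 0.0455 and 0.0474), and in none of the other alternatives. The other 8 members had log2 differences of -0.40 to 0.85, and the widest of their 95% intervals, that of Phf19, ran from -2.81 to 2.11.

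Between 4C and tumorigenic 4C11- no member was called either, in a comparison that called 1.67% of all genes. At an unadjusted p under 0.05 there was again 1 member (13.5% of all genes), Rnf2, at 5.61 ± 0.84 in 4C11- (SD, n = 3) against 6.50 ± 0.04 in 4C (log2 difference -0.88, limma adjusted p = 0.270). Without 4C11- replicate 1 the difference of Rnf2 was -0.45. Differences of Suz12 (-0.93) and Bmi1 (-1.03) rest on the same library, since without it they were -0.04 and -0.19. With libraries weighted by quality, which gave 4C11- replicate 1 the lowest weight, Phf1 (-1.07) and Rnf2 (-0.75) were called (limma adjusted p = 0.0222 and 0.0156). The weighted fit also called many more of all genes, 2501 of 14272.

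From 4C11- to metastatic 4C11+, Bmi1 rose, and it was the 1 member of 10 called where 31.1% of all genes were. Its mean was 7.09 in 4C11+ and 5.02 in 4C11-, a log2 difference of 2.07 ± 0.60 (SE, n = 3 each) or 4.19-fold (limma adjusted p = 0.0213). The libraries did not overlap. Phf19 differed by 2.54 ± 1.01 (limma adjusted p = 0.0764), also without overlap, and Mtf2 by -1.46 ± 0.64 (limma adjusted p = 0.108), with overlap. The difference of Bmi1 was 1.23 without 4C11- replicate 1, still called, and the call was lost without 4C11+ replicate 1 or 3 or with replicates 1 and 2 averaged (limma adjusted p = 0.0676, 0.0557 and 0.0575). Mtf2 was at -2.25 and called without 4C11- replicate 1 (limma adjusted p = 0.00639), and Phf19 was called under 5 of its 19 alternatives.

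The differences of the remaining members ranged from -0.45 for Ezh2 to 0.48 for Rnf2. The value of Ezh2 depended on 1 library of 4C11+. Without 4C11+ replicate 3 its difference was -1.01 (limma adjusted p = 0.0450), and without replicate 1 or 2 it was -0.15 or -0.19. Suz12 (0.20) and Phf1 (-0.20) changed sign without 1 library of 4C11+, to -0.097 without replicate 3 and to 0.034 without replicate 2, and neither was called.

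Between the 2 epithelial lines, 4C11+ and melan-a, Phf19 was 3.94 ± 1.13 higher in 4C11+ on the log2 scale (SE, n = 3 and 2, limma adjusted p = 0.0350), and it was the 1 member called in a comparison that called 15.9% of all genes. Phf19 passed the expression filter mostly through 4C11+, so the direction of this difference was in large part fixed by the filter. Its call was lost without melan-a replicate 2, when the difference was 2.48 (limma adjusted p = 0.279), without any 1 of the 4C11+ libraries (0.0592 to 0.0957), with 4C11+ replicates 1 and 2 averaged (0.0733) and with quality weights (0.0648). It also rests on few reads, an estimated 0 and 4 in melan-a, and with values under that of 3 reads raised to it the difference was 2.49, or 5.62-fold. Mtf2 (-1.90 ± 0.72, limma adjusted p = 0.0991), Phf1 (-1.35 ± 0.50, 0.0933) and Bmi1 (1.45 ± 0.67, 0.167) had libraries that did not overlap and were not called, and all 3 were called without 4C11- replicate 1 (0.0234, 0.0322 and 0.0207). The other 6 members differed by -0.55 to 0.39.

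Set against the other 3 lines together, 4C11+ had higher Phf19 and Bmi1 and lower Mtf2, 3 members called of 10 where 34% of all genes were called. Phf19 was 3.59 ± 0.84 higher on the log2 scale (SE, limma adjusted p = 0.00657) and was called in all 18 alternatives that tested it (limma adjusted p 0.000115 to 0.0387). All of these used genes that passed the filter of 1 CPM in at least 4 libraries. Phf19 passed it mostly through 4C11+, so the direction was in large part fixed by the filter and the difference is a description. Since 3 libraries of melan-a and 4C had at most 1 estimated read, the difference was also computed with values under that of 3 reads raised to it, and was then 2.76, or 6.78-fold. Bmi1 was 1.52 ± 0.50 higher (2.86-fold, limma adjusted p = 0.0347), and it was called in 11 of 19 alternatives. Mtf2 was 1.73 ± 0.54 lower in 4C11+, where its mean was 4.71 against 6.45 (limma adjusted p = 0.0266); the call was lost without 4C11+ replicate 1 or 2 and with these 2 averaged (0.128, 0.141 and 0.134). 4C11+ replicate 3 had 5.86 for Mtf2, 1.71 above the mean of the other 2. Phf1 was at -0.83 ± 0.37 (limma adjusted p = 0.107), and the other 6 were at -0.42 to 0.16. Ezh2, at -0.42, was called without 4C11+ replicate 3 (-0.98, limma adjusted p = 0.0275) and with quality weights (-0.97, 0.00355). The comparisons that involve 4C11+ share its libraries and are not independent.

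Between the mesenchymal-like lines 4C and 4C11- and the epithelial lines no member was called, while 29.7% of all genes were. At an unadjusted p under 0.05 there was 1 member (39.7% of all genes), Jarid2, with a log2 difference of -0.59 ± 0.22 (SE, limma adjusted p = 0.0622), and without melan-a replicate 3 it was called at -0.75 (0.0406). Mtf2 was called in 4 of 19 alternatives, among them without 4C11- replicate 1 (1.10, limma adjusted p = 0.0342), and Phf19 in 2 of 18, the replicate block (-1.69, 0.0344) and quality weights (-2.21, 0.0265). The libraries of these groups overlapped for all 10 genes. The interval for Ezh2 ran from -0.64 to 0.80 and that for Eed from -0.49 to 0.52, which bounds a difference of these genes to less than 1 on the log2 scale.

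**Figure D2:**
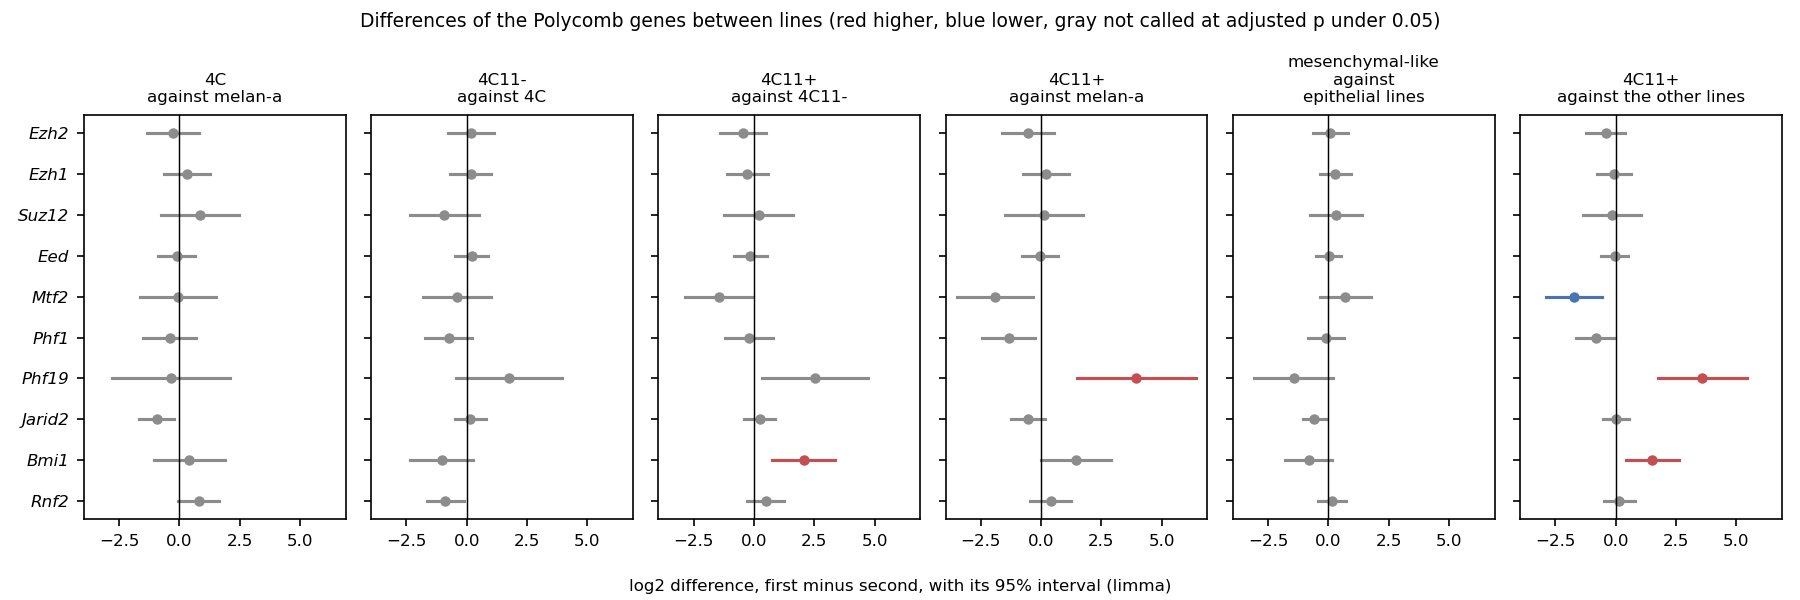
Log2 differences of the 10 genes (x axis, with 95% intervals from limma) in the 6 comparisons, the first group minus the second, with the genes on the y axis. Red points are higher and blue points lower at an adjusted p under 0.05, and gray points were not called; Phf19 and Bmi1 are the genes called higher in 4C11+ and Mtf2 the gene called lower.

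The spread between libraries of a line was wide for 4 of the members, and cultures and library preparation cannot be told apart in it. The pooled SD within lines was 1.0 for Suz12, 0.97 for Mtf2, 0.90 for Bmi1 and 1.42 for Phf19, and it lay at percentiles 96.9, 95.9, 94.1 and 91.4 among genes of a like mean. Jarid2 and Eed had SDs of 0.33 and 0.38, at percentiles 34.6 and 51.3. In 4C11-, replicate 1 had the lowest value for 7 of the 10 genes, and in 4C11+, replicate 3 had the highest for 9.

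In 4C11- replicate 1, the members of lowest GC content deviated in the direction of genes of like GC content. Mtf2, Rnf2, Bmi1 and Suz12 had transcripts of 38.2% to 41.6% GC, at percentiles 2.20 to 11.1 of all genes. In 4C11- replicate 1 they stood 1.32 to 2.69 below the mean of the other replicates (Rnf2 -1.32, Mtf2 -2.37, Bmi1 -2.52, Suz12 -2.69), and the medians of genes of a like GC content were between -1.83 and -1.23. Phf1, at 58.6% GC, was 1.45 above, beside a median of 0.58. Eed and Jarid2 went the other way, at -0.75 and -0.59 beside medians of 0.09 and 0.21. In melan-a replicate 2 Suz12, Bmi1 and Mtf2 were lower than in replicate 3, as genes of like GC content were. Rnf2 was 0.11 higher there, beside a median of -0.77. In 4C11+ replicate 3 Ezh2 and Mtf2 were 1.69 and 1.71 above the other replicates, beside medians of 0.09 and 0.58 for genes of like GC content. Proliferation genes were mixed in 4C11- replicate 1. Mki67 (5.07 against 8.53 and 9.73 in the other replicates) and Bub1 (4.91 against 7.31 and 7.92) were low. Mcm3 (8.69 against 8.55 and 8.54) and Cdk1 (8.25 against 8.11 and 8.17) were not. Summed over the 22 proliferation and E2F genes, melan-a replicate 2 was at 2514 CPM and melan-a replicate 3 at 5936. In 4C11+ replicate 3 the sum was 5995 CPM, against 4231 and 4107 in replicates 1 and 2. The part of proliferation in these differences between replicates was not tested.

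With the GC trend of each library taken out, an alternative chosen after seeing the data, the Bmi1 values were 4.56, 5.61 and 5.59 in 4C11- and 7.28, 7.08 and 6.87 in 4C11+. The 4C11+ libraries stayed above all others for Bmi1 and Phf19, and for Mtf2 (4.37, 4.37 and 5.51) they were now below all others. Bmi1 and Mtf2 were then called in all 3 comparisons of 4C11+, at log2 differences of 1.56 to 1.83 and -1.70 to -1.62, and also for the mesenchymal-like lines against the epithelial ones (-0.74 and 0.77, limma adjusted p = 0.0420 and 0.0244).

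**Figure D3:**
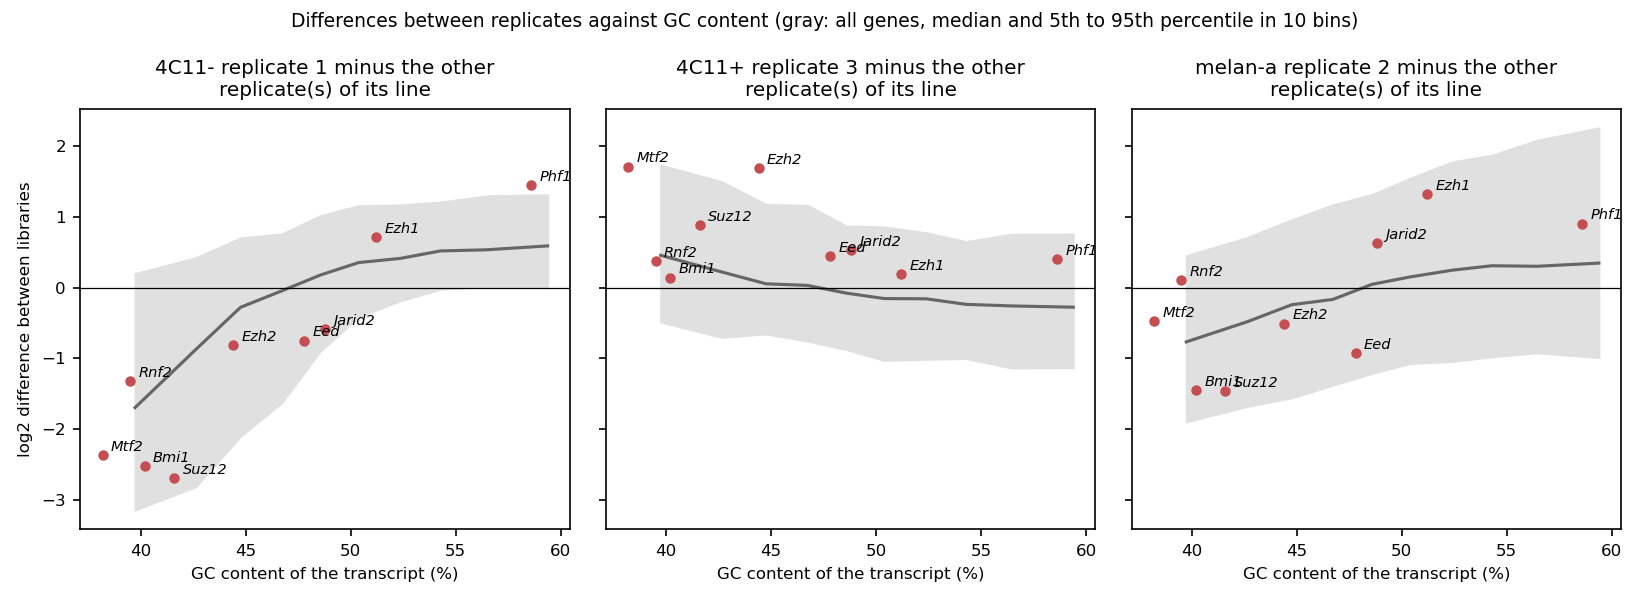
Difference between 1 library and the mean of the other replicates of its line (y axis, log2) against the GC content of the transcript (x axis, percent) for 9 members (red; Phf19, with few reads, is left out), with the median and the 5th to 95th percentile of all genes with a mean of at least 3 in 10 bins of GC content (gray). In 4C11- replicate 1 Mtf2, Bmi1 and Suz12 lie lowest, where the genes of low GC content lie low.

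Across the 11 libraries, the genes with the pattern most like that of a member (Pearson's r, among 11444 genes with a mean of at least 1) were Exoc5 for Suz12 (r = 0.989), Zfp407 for Mtf2 (0.986), Selenot for Bmi1 (0.979), Ubr7 for Phf19 (0.959), Actr2 for Rnf2 (0.951), Noc3l for Eed (0.948), Zcchc4 for Jarid2 (0.938), Efcab7 for Ezh2 (0.936), Mgst3 for Phf1 (0.923) and Sspn for Ezh1 (0.904). Among the members themselves, the deviations from the line means ran together most closely for Suz12 and Bmi1 (r = 0.947) and in opposite directions for Ezh1 and Eed (r = -0.804). These correlations are descriptions over libraries that share lines, depth and the GC trend.

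Of the 6 other PRC2 subunits measured, Rbbp7, a histone chaperone, was the 1 gene whose mesenchymal-like and epithelial libraries did not overlap. It ranged from 9.22 to 9.73 log2 CPM over the 6 mesenchymal-like libraries and from 7.72 to 8.33 over the 5 epithelial ones. It rose from melan-a to 4C by 1.40 (limma adjusted p = 0.000390) and fell by 1.49 from 4C11- to 4C11+ (limma adjusted p = 5.98e-05). Its paralogue Rbbp4 had another pattern, with a log2 difference of -0.69 from melan-a to 4C, 0.90 from 4C to 4C11- and -0.58 from 4C11- to 4C11+ (limma adjusted p = 0.0437, 0.0355 and 0.0331). The last of these calls was lost with 4C11+ replicates 1 and 2 averaged (0.0923), whereas that of Rbbp7 was not (0.000561). No other of the 6 genes was called in those 3 steps.

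Among the other PRC1 genes, the share called was near or below that of all genes, save for the CBX, PHC and SCM subunits. Their exceptions were the step from 4C11- to 4C11+ and the comparison of 4C11+ against the other lines. In the latter, 3 of the 10 were higher and 3 lower (limma), beside 34% of all genes. With 4C11+ replicates 1 and 2 averaged, 1 was higher and 1 lower, beside 3041 of all 14272 genes called in that fit. From melan-a to 4C, where 15.2% of all genes were called, none of the 6 catalytic and PCGF subunits and none of the 10 CBX, PHC and SCM subunits were (limma; 1 and 3 at an unadjusted p under 0.05), and 3 of 17 subunits of the variant complexes were higher (median log2 difference 0.38, against -0.06 over all genes). These were Bcor (1.48), E2f6 (1.3), a repressor of the E2F family, and Skp1a (0.80). From 4C11- to 4C11+, where 31.1% of all genes were called, 1 of 6, 4 of 10 and 4 of 17 were. Pcgf1 was higher (1.16, limma adjusted p = 0.0329). Scml4 (3.05) and Phc1 (1.0) were higher, and Cbx2 (-1.25) and Cbx6 (-1.24) lower. Of the variant subunits Bcor (-1.25), Wdr5 (-0.65) and Csnk2a1 (-0.61) were lower and Fbrs (0.89) higher. With 4C11+ replicates 1 and 2 averaged, Scml4, Cbx2 and Bcor were still called, and Pcgf1, Phc1, Cbx6, Wdr5, Csnk2a1 and Fbrs were not (limma adjusted p 0.0562 to 0.151). Between 4C11+ and melan-a (15.9% of all genes), E2f6 (1.58) and Skp1a (0.999) were higher of 17, Cbx7 (-2.18), a reader of the PRC2 mark, was lower of 10, and Pcgf5 (-2.11) lower of 6. The calls of Cbx7 and Pcgf5 were lost with the 2 libraries averaged (limma adjusted p = 0.0632 and 0.0578).

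Enzymes that act against Polycomb differed for a few genes. PR-DUB removes ubiquitin from histone H2A, and 4 of its 10 measured subunits were called from 4C11- to 4C11+, beside 31.1% of all genes. Its enzyme Bap1 (-0.64, limma adjusted p = 0.0295), Foxk1 (-1.14) and Kdm1b (-1.04) were lower and Foxk2 (0.97) higher. With 4C11+ replicates 1 and 2 averaged, Foxk2 was the 1 still called (limma adjusted p = 0.0215), and Bap1 was at 0.0746. Bap1 was also lower in 4C11+ than in melan-a (-0.82, limma adjusted p = 0.0276, or 0.0765 with the 2 averaged). Kdm6a, 1 of the 2 measured demethylases of lysine 27, was lower in the mesenchymal-like lines, at 4.65 against 5.82 (limma adjusted p = 0.0185), beside 29.7% of all genes. Its value was 3.01 in 4C11- replicate 1 and 4.73 to 5.14 in the other mesenchymal-like libraries. Nsd3, an H3 lysine 36 methyltransferase, was lower in 4C11+ than in 4C11- and melan-a (-1.21 and -1.39, limma adjusted p = 0.00602 and 0.0111). It was the 1 called of 5 in each, beside 31.1% and 15.9% of all genes, and stayed called with 4C11+ replicates 1 and 2 averaged (limma adjusted p = 0.0289 and 0.0457).

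Proliferation and E2F genes, to which Ezh2 is usually counted as an E2F target, were mostly not called. Of 22 genes, 1 rose and 1 fell from melan-a to 4C (Mcm6 1.26, E2f2 -1.89), where 15.2% of all genes were called. None were called in the next 2 steps (limma; 3 and 2 at an unadjusted p under 0.05), beside 1.67% and 31.1% of all genes. In 4C11+ 3 were higher than in melan-a (Rrm2 1.91, Mcm6 1.23 and Mcm3 1.12), beside 15.9% of all genes. With 4C11+ replicates 1 and 2 averaged Mcm6 alone was called, beside 1134 of all 14272 genes.

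The Hox genes and the Cdkn2a locus are textbook targets of Polycomb repression, and their levels in the lines stand beside those of the subunits here. Of 39 Hox genes listed, 25 had a row and 14 did not, among them all Hoxd genes. A gene had to reach 1 CPM in at least 4 libraries to have one, and 23 of the 25 were at no more than 3 reads in both melan-a libraries, so they have a row only through the derived lines. The direction of the differences between lines is therefore in large part fixed by that filter, and the levels are given as a description. Hoxa10 was -1.90 and -2.58 log2 CPM in melan-a and 5.54, 5.91 and 5.67 in 4C, at least 6.10 higher. Hoxc11 was at the lowest value in melan-a and at 4.83, 4.60 and 4.47 in 4C, at least 5.03 higher. Between 4C and 4C11- none of the 25 were called by limma, beside 1.67% of all genes. At an unadjusted p under 0.05 there was 1 of them, beside 13.5% of all genes.

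In 4C11+ 12 of the 25 were at no more than 3 reads in every library, again among genes with a row through the other lines. The clusters, compared after the values were seen, had different levels. All 9 Hoxc genes were at no more than 3 reads in every 4C11+ library, among them Hoxc9 and Hoxc11, which were at 4.14 to 4.91 and 3.80 to 4.67 in 4C11-. The summed level of the 10 Hoxa genes was 79.3 to 118 CPM in 4C11+, 86.3 to 116 in 4C11-, 118 to 140 in 4C and 3.09 to 4.69 in melan-a. That of the 6 Hoxb genes was 2.94 to 6.14 CPM in 4C11+, 60.4 to 111 in 4C11-, 75.4 to 85.6 in 4C and 3.84 to 4.46 in melan-a. Hoxa10 in 4C11+ was 5.91, 6.20 and 5.55, within 0.27 of 4C11- in the mean (limma adjusted p = 0.518).

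Cdkn2a and Cdkn2b had their own pattern. Cdkn2a was 7.36 and 6.59 log2 CPM in melan-a, 6.57, 6.32 and 6.81 in 4C, 7.90, 7.13 and 6.87 in 4C11-, and -0.70, -2.44 and -2.58 in 4C11+. Cdkn2b, the neighbouring inhibitor gene, lay between 3.89 and 5.64 in all libraries of melan-a, 4C and 4C11-, and at the lowest value in all 4C11+ libraries. Neither gene was above 3 reads in any library of 4C11+, which makes Cdkn2a at least 7.28 lower and Cdkn2b at least 5.13 lower than in 4C11- on the log2 scale. From melan-a to 4C the differences were -0.41 and 0.09 (limma adjusted p = 0.702 and 0.927). Mtap, the gene beside them, was chosen after its values were seen; it was 8.40, 8.42 and 8.49 in 4C11+ and 6.97 to 8.22 in the other lines. Copy number and histone marks at these genes were not measured in these libraries.

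**Figure D4:**
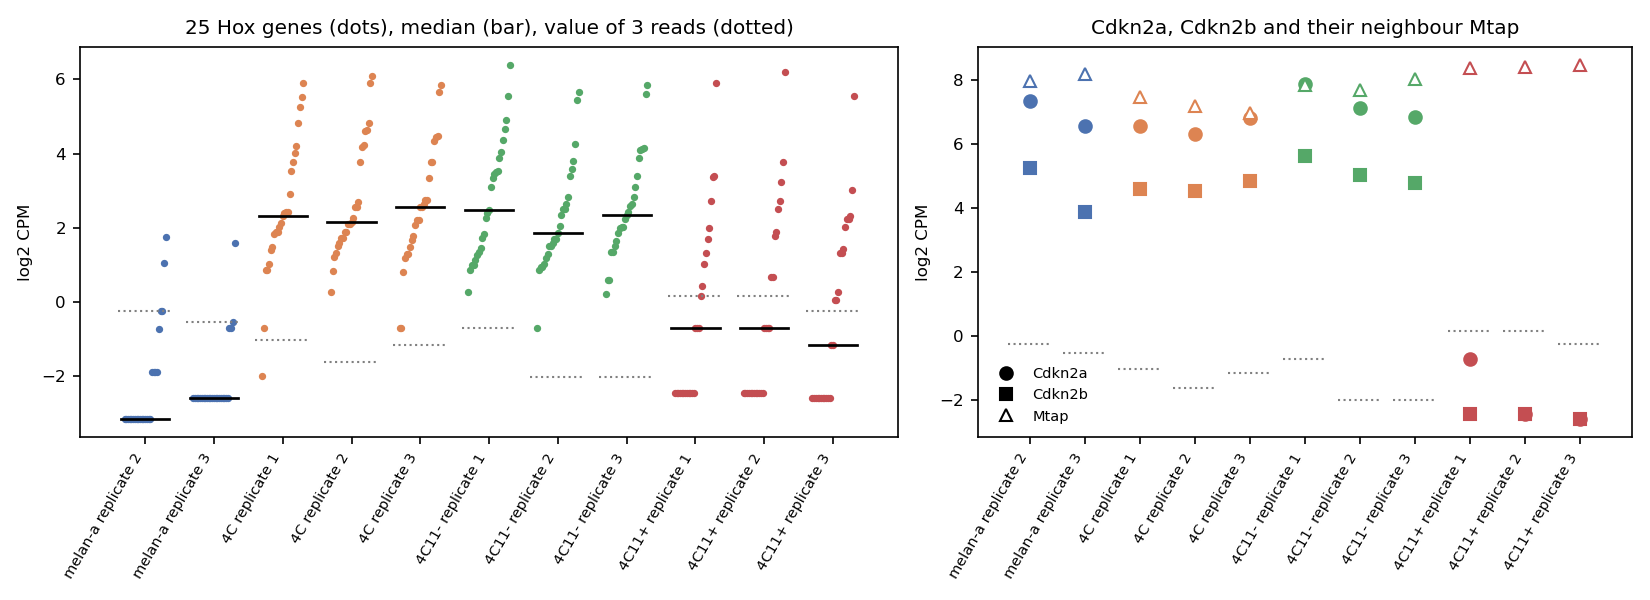
Log2 CPM (y axis) in each library (x axis) of 25 Hox genes (left, 1 dot per gene, with their median as a bar) and of Cdkn2a, Cdkn2b and Mtap (right), with the value of 3 reads as a dotted line. The Hox genes shown passed a filter of 1 CPM in at least 4 libraries, and most lie at the lowest values in melan-a. In 4C11+ Cdkn2a and Cdkn2b lie under the dotted line while Mtap lies at 8.40 to 8.49.

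Markers of other cell types were measured in part. Of 7 fibroblast markers only Col1a1 and Pdgfra were measured. They summed to 1957 to 2160 CPM in 4C, 1629 to 1949 in 4C11-, 17.8 to 85.6 in melan-a and 7.69 to 9.21 in 4C11+, and the defining fibroblast genes Dcn, Lum, Thy1 and Fap had no row. The part of a fibroblast-like state, or of fibroblasts, in the Hox values was not tested. Of the keratinocyte and leukocyte markers 1 of 5 each was measured, Krt10 at 0.17 to 2.80 CPM and Cd68 at 3.43 to 81.6 CPM, the highest in melan-a replicate 2.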

How the data were processed

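Total RNA of 11 libraries was used, 2 of melan-a and 3 each of 4C, 4C11- and 4C11+, grouped as the labels give them. Reads were paired, of 100 bases, from stranded libraries. The authors mapped them to the mouse genome (Ensembl 90, GRCm38) with STAR, after trimming with Trimmomatic per the labels, counted them per gene with Rsubread, dropped genes that did not reach 1 CPM in 4 or more libraries, and applied voom of limma. The authors deposited log2 CPM, 1 file per library. The 11 libraries share 1 highest value, as after quantile normalization. The values were used as deposited, with no further filter or pseudocount.

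The members and all gene lists were chosen with earlier results of these data known. Reads were estimated from the steps between low values, and depth from the step at 40 reads; absence means no more than 3 reads in each library. Differences were tested over all 14272 genes (24 without a symbol) in limma 3.58.1 (R 4.3.3), fitting 1 mean per line and a mean-variance trend, with two-sided tests and Benjamini-Hochberg adjustment, called at an adjusted p under 0.05. The joined groups are means of line means. The named genes are the 10 members, up to 4 genes of each list per comparison with the largest differences among those called, and the genes most like each member. Lengths and GC content (longest transcript) are from GENCODE M21. The 13 related lists covered other Polycomb subunits, PR-DUB, H3K27 and H3K36 enzymes, repressed loci, proliferation, and cell types. Of the 8 planned and 3 added alternatives the closing section gives the effect. The fit was also checked on simulated data, with 100 genes changed at each size in each comparison. Of genes changed by 1 on the log2 scale 6% to 31% were called, and of those changed by 2, 42% to 68%. The simulated noise was independent between genes, and far fewer genes were changed than were called in most real comparisons. These shares therefore do not carry over to the tests of the members. Python 3.11.15, NumPy 2.4.6, pandas 2.3.3 and matplotlib 3.10.9 were used.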

Additional observations from a re-analysis of the deposited data

Results flagged for a closer look

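In 4C11- replicate 1, Suz12 was 4.53 log2 CPM and Bmi1 was 3.34, each far below the next of the 6 libraries of the mesenchymal-like lines. The gap to the nearest library took 0.751 (Suz12) and 0.764 (Bmi1) of the range of the group, past Dixon's 95% limit. The test was run on 20 groups (10 genes in the mesenchymal-like and in the epithelial lines), and chance passes this limit in about 1 group of 20. Values of low GC genes in this library are given above, and their part in these 2 values was not tested.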

How the results depend on the processing

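No called member changed its direction under any of the alternatives. The members called from 4C to 4C11- numbered 2 with library quality weights, which called 2501 of 14272 genes, and 0 otherwise. From 4C11- to 4C11+ they numbered 5 with quality weights, which called 9238 of 14272 genes in place of 4433. They numbered 2 in the fit to the compared lines, 2 with the GC trend removed and 0 with 4C11+ replicates 1 and 2 averaged (the last 2 settings were chosen after seeing the data), against 1. Between 4C11+ and melan-a they were 0 with genes under a mean of 1 left out, since Phf19 was then not tested, 4 with the GC trend removed and 0 with the replicates averaged, against 1. The averaged fit called 1134 of 14272 genes there, in place of 2270. For the mesenchymal-like against the epithelial lines they were 2 with quality weights and 2 with the GC trend removed, against 0. For 4C11+ against the other lines they were 1 with the replicates averaged, against 3, and that fit called 3041 of 14272 genes in place of 4856. The cause of these changes was not tested. Where no count of all genes is given here, the count of members is a description. Leaving out 1 library at a time, the counts ranged from 0 to 2 (4C against melan-a), 0 to 0 (4C11- against 4C), 0 to 3 (4C11+ against 4C11-), 0 to 4 (4C11+ against melan-a), 0 to 1 (mesenchymal-like against epithelial) and 1 to 3 (4C11+ against the others).

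The replicate numbers were not taken to pair the samples, as the labels give no shared batch and deviations of same-numbered libraries correlated at -0.354 to 0.506 (median 0.198, against -0.162 for other pairs). With the replicate number as a block, members called were 3 from 4C11- to 4C11+ and 2 between mesenchymal-like and epithelial lines, and the other comparisons kept their counts.

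Of all genes, 238 were called between 4C and 4C11-, but 125 with the low filter, 2501 with quality weights, 143 in the fit to the compared lines, 412 with the GC trend removed, and 93 to 320 with 1 library left out. Quality weights called 9238 in place of 4433 (4C11+ against 4C11-) and 8720 in place of 4856 (4C11+ against the others), where averaging gave 3041 and leaving out 1 library 3001 to 5718. Between 4C11+ and melan-a 2270 became 1446 in the fit to the compared lines, 1134 with the replicates averaged and 1089 to 2864 with 1 library left out.

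Differences changed sign in 72 cases, none of them called before or after. With quality weights these were 0.17 for Mtf2 (4C against melan-a), -0.095 for Ezh1 (4C11- against 4C), -0.51 for Suz12, 0.30 for Phf1 and -0.16 for Jarid2 (4C11+ against 4C11-), -0.049 for Suz12 (4C11+ against melan-a), and -0.23 for Jarid2 and -0.021 for Rnf2 (4C11+ against the others). With the replicate block they were 0.41 for Mtf2 (4C against melan-a) and 0.033 for Eed (4C11+ against melan-a). With the GC trend removed they were 0.000975 for Eed (4C against melan-a), 0.21 for Mtf2 (4C11- against 4C), -0.035 for Suz12 (4C11+ against 4C11-) and -0.055 for Jarid2 (4C11+ against the others). With the replicates averaged they were 0.018 for Eed (4C11+ against melan-a), -0.057 for Ezh2 and -0.024 for Eed (mesenchymal-like against epithelial), and 0.0063 for Suz12 and 0.028 for Eed (4C11+ against the others).

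With 1 library left out, the ranges that crossed 0 were Ezh1 -0.36 to 0.96, Eed -0.58 to 0.34, Mtf2 -0.28 to 0.29, Phf1 -0.85 to 0.052, Phf19 -1.81 to 1.11 and Bmi1 -0.31 to 1.15 for 4C against melan-a. They were Ezh1 -0.14 to 0.46, Ezh2 -0.092 to 0.45 and Mtf2 -0.88 to 0.40 for 4C11- against 4C. They were Suz12 -0.70 to 0.84, Eed -0.40 to 0.015 and Phf1 -0.49 to 0.29 for 4C11+ against 4C11-. They were Ezh1 -0.47 to 0.85, Suz12 -0.62 to 0.85 and Eed -0.52 to 0.40 for 4C11+ against melan-a. They were Ezh1 -0.039 to 0.62, Ezh2 -0.067 to 0.36, Suz12 -0.038 to 0.78, Eed -0.22 to 0.24, Phf1 -0.34 to 0.13 and Rnf2 -0.043 to 0.38 for the mesenchymal-like against the epithelial lines. They were Ezh1 -0.29 to 0.15, Suz12 -0.44 to 0.12, Eed -0.20 to 0.11 and Jarid2 -0.15 to 0.14 for 4C11+ against the other lines. The log2 difference Ezh1 minus Ezh2 ranged, without 1 library, between -1.04 and -0.25 (4C11+), -2.39 and -0.56 (melan-a), -1.42 and -0.51 (4C11-), and -1.23 and -0.71 (4C). With 2 or 3 libraries per line, members that were not called may still differ.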
